A study of Oryctolagus cuniculus with 27 samples.

Results

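Scavenger receptors are surface proteins that bind and internalise modified lipoproteins, haemoglobin complexes, altered glycoproteins and cell debris. Transcripts of 9 of them were followed through a rabbit series on diet-induced aortic valve disease: MSR1, MARCO, CD36, SCARB1, OLR1, STAB1, CD163, MRC1 and LRP1. The 9 genes were chosen by name, with earlier results of these data known, and all 9 were found by symbol among the 31346 genes of the count tables for valve, ascending aorta and myocardium. They share a function and not a sequence family, since they belong to several unrelated protein classes.

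All 27 libraries were bulk RNA-seq libraries from male New Zealand rabbits of WT genotype. The diet groups received 1% cholesterol with 3500 IU of ergocalciferol (vitamin D2), and the controls received normal chow. Aortic valve libraries came from 4 control rabbits and from 4 rabbits each after 2, 4 and 7 weeks of diet. Ascending aorta was sampled in 3 control and 2 diet rabbits and myocardium in 3 control and 3 diet rabbits, with no duration in the labels. A valve library held a single cusp of a single rabbit, from which most but not all of the surrounding fat had been removed. The titles place 3 valve controls at 7 weeks and 1 at 2 weeks, whereas the design text describes controls of 2 and 4 weeks, which leaves their age open to doubt. By their library names, 2 control rabbits gave both a valve and a myocardium, all 3 diet myocardium libraries came from rabbits of the 7-week valve group, and 1 rabbit gave a 2-week valve and a diet aorta.

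Library totals ran from 8458453 to 19998954 counts in valve, 11509616 to 16107428 in aorta and 13954438 to 17322373 in myocardium. Levels below are CPM, counts scaled by the total of their library, which compare 1 gene across libraries and not different genes, because no transcript lengths were at hand. The labelled tissues were checked on marker genes. The summed level of 20 cardiomyocyte markers was 83480 to 116000 CPM in myocardium and 728 to 1752 CPM in aorta, but it was also 1692 to 51650 CPM in the valve libraries, so valve samples carried myocardial RNA in amounts that differed between rabbits. Valve interstitial and fibroblast markers (10 genes) summed to 8876 to 31770 CPM in valve and 1358 to 3313 CPM in myocardium. The share of counts on the ribosomal RNA gene RN18S was 0.282% to 0.516% in the 4-week valves, 1.36% to 1.97% in the 2-week valves and 0.476% to 2.06% in the control valves. The numbers at the end of the library names also fell in separate blocks for the control, 2-week and 7-week valves. The sources used here do not say what these numbers mark, and anything that they mark and the diet group cannot be told apart.

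In arterial lesions, macrophages take up modified low density lipoprotein (LDL) through MSR1 and CD36 without the feedback that limits the native LDL receptor, and become lipid-laden foam cells. Several members are not macrophage genes alone: CD36 is abundant in capillary endothelium, fat and heart muscle as a fatty acid carrier, STAB1 in sinusoidal endothelium, and LRP1 in smooth muscle cells and fibroblasts. In bulk tissue, a change in the number of cells that carry a receptor and a change in its RNA per cell cannot be told apart.

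In the valve, 3 receptors were raised after 4 weeks of diet and the same 3 after 7 weeks: MSR1, CD163 and STAB1. None of the 9 passed the test after 2 weeks. CD36, SCARB1, MRC1, MARCO and LRP1 did not pass against control at any duration, although all 4 MRC1 values exceeded every control at both 4 and 7 weeks. The median log2 fold change of the 9 members was 0.15 at 2 weeks, 1.25 at 4 weeks and 1.21 at 7 weeks, beside 0.02, -0.03 and -0.01 over all genes tested. OLR1 counts in these medians, although it entered the test only through its 4- and 7-week libraries. The medians are therefore a description and test nothing.

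**Figure D1:**
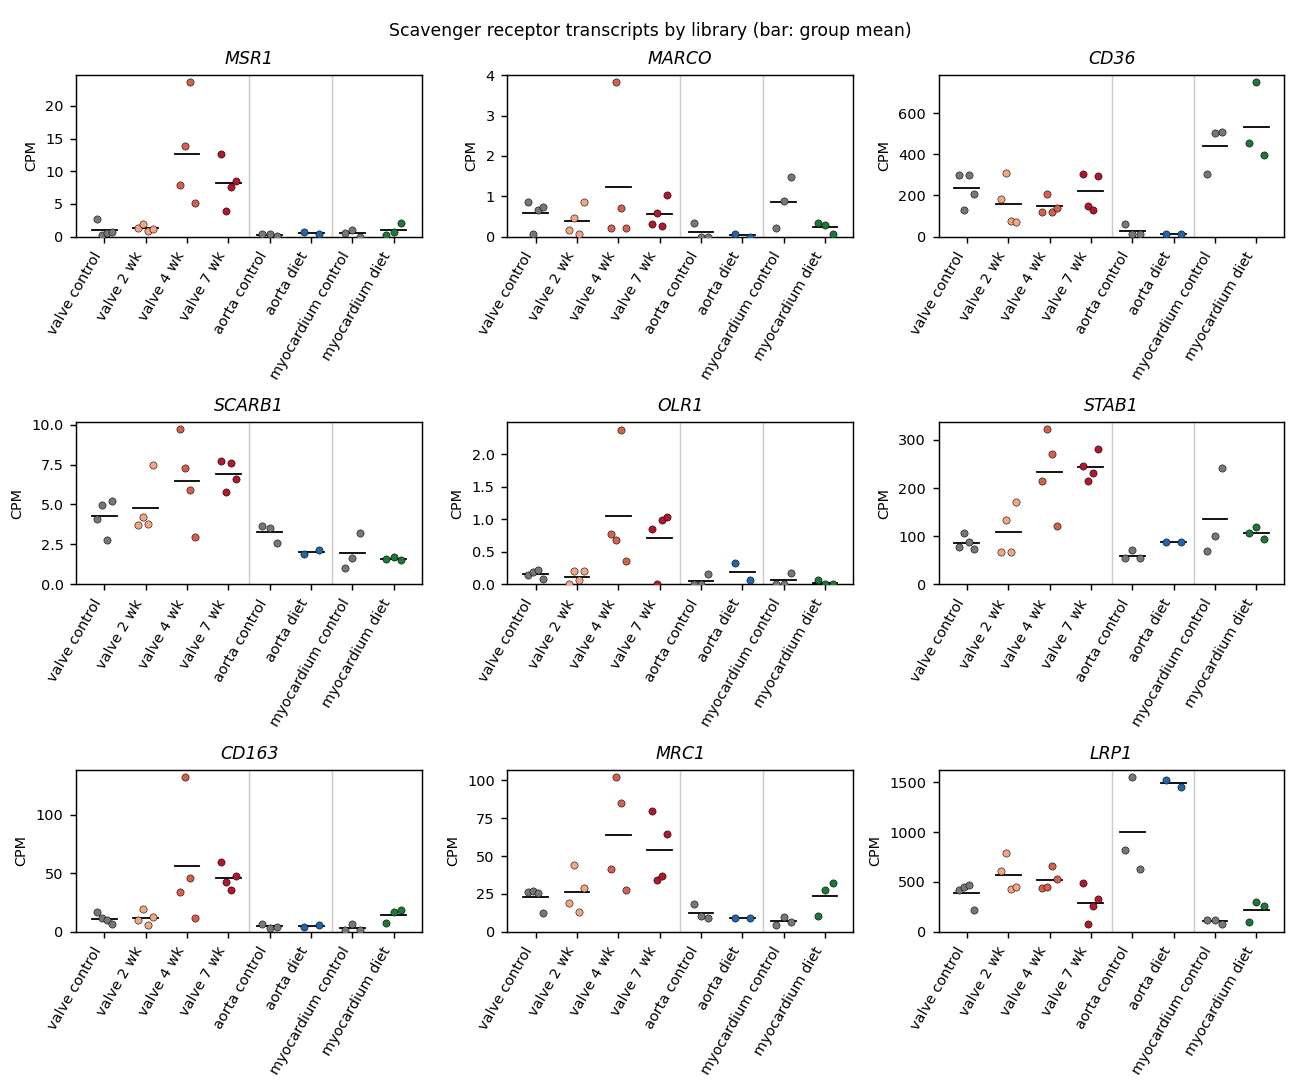
CPM of each receptor (vertical axes, linear and starting at 0) in each of the 27 libraries, by tissue and group (horizontal axes). Each point is a library and each bar a group mean. MSR1 stands above all controls in every 4- and 7-week valve, while CD36 does not and is lowest in the aorta.

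MSR1 encodes the class A macrophage scavenger receptor for oxidised and acetylated LDL. Its level in the control valves was 2.71, 0.32, 0.592 and 0.65 CPM, and after 2 weeks of diet it was 1.32, 1.99, 0.848 and 1.15 CPM. After 4 weeks the 4 valves held 7.92, 13.8, 23.6 and 5.09 CPM, and after 7 weeks 12.7, 3.90, 7.55 and 8.48 CPM. Every 4- and 7-week valve exceeded every control and every 2-week valve, whereas the 2-week values lay inside the range of the controls. The highest control was several times the other 3. The group means were 1.07 ± 1.10 CPM in control, 1.33 ± 0.484 at 2 weeks, 12.6 ± 8.19 at 4 weeks and 8.15 ± 3.60 at 7 weeks (SD, n = 4 each).

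By edgeR's quasi-likelihood test, MSR1 was 10.3-fold higher than control at 4 weeks (log2 fold change 3.36 ± 0.57 SE, adjusted p = 0.0188) and 7.33-fold higher at 7 weeks (2.87 ± 0.57, adjusted p = 0.00978). The difference at 2 weeks was smaller than its standard error. The 7-week call was kept in all 8 fits that each left out 1 of the 8 libraries compared, with log2 fold changes from 2.54 to 3.85. At 4 weeks the call was kept in 4 of 8: it was lost without control replicate 2, 3 or 4 or without 4-week replicate 3, with log2 fold changes of 2.91 to 3.22 in those fits. With the RN18S share as a covariate, the 4-week log2 fold change was 2.38 (adjusted p = 0.52), and with the replicate number as a block it was 3.64 (adjusted p = 0.0612). Here and below, that block used the numbers in the titles, where the library called control replicate 4 in this text is the 2-week control titled replicate 1.

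MARCO, a second class A receptor, is carried by subsets of tissue macrophages and also binds bacteria. It was scarce in every tissue. The control valves held 0.064 to 0.855 CPM, the 2-week valves 0.0652 to 0.85, the 4-week valves 0.206 to 3.83 and the 7-week valves 0.265 to 1.03 CPM. The ranges overlapped at all 3 durations, and a single 4-week valve with 39 counts stood apart at 3.83 CPM. The log2 fold changes at 2, 4 and 7 weeks were all smaller than their standard errors, and at 1 to 39 counts a library no moderate change was detectable.

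CD36 is a class B receptor for oxidised LDL and long-chain fatty acids. Control valves held 299, 128, 302 and 209 CPM, and 2-week valves 185, 310.2, 73.7 and 69.6 CPM. The 4-week valves held 121, 205, 119.8 and 139.5 CPM and the 7-week valves 303, 151, 129.5 and 295 CPM. The groups overlapped throughout, and within the control and 7-week groups the highest library was about 2.4 times the lowest (2.37 and 2.34). CD36 was thus not raised with MSR1: its log2 fold change was -0.64 ± 0.43 at 2 weeks (adjusted p = 0.526) and -0.87 ± 0.43 at 4 weeks (adjusted p = 0.425), and at 7 weeks the difference was below its standard error.

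SCARB1 encodes the class B receptor for high density lipoprotein, which transfers cholesteryl ester into cells. It was at 4.06, 4.99, 2.74 and 5.20 CPM in control valves and at 7.70, 5.79, 7.62 and 6.60 CPM after 7 weeks, so that all 4 of the latter exceeded all controls. The 2-week valves (3.71 to 7.50 CPM) and 4-week valves (2.96 to 9.73 CPM) overlapped the controls. The log2 fold change was 0.45 ± 0.32 at 4 weeks (adjusted p = 0.65) and 0.69 ± 0.32 at 7 weeks (adjusted p = 0.191), which did not pass the threshold of 0.05.

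OLR1 encodes LOX-1, a lectin-like receptor for oxidised LDL known from activated endothelium as well as macrophages. Only 0 to 4 counts fell on it in each control and 2-week valve, so it entered the test through its 4- and 7-week libraries alone. Its levels were 0.142, 0.192, 0.222 and 0.0812 CPM in control and 0, 0.199, 0.0652 and 0.20 CPM at 2 weeks. They were 0.772, 0.687, 2.37 and 0.364 CPM at 4 weeks and 0.848, 0, 0.994 and 1.03 CPM at 7 weeks. All 4-week valves and 3 of 4 7-week valves stood above the controls, and the remaining 7-week valve, the shallowest library, had no count. The log2 fold change against control was 2.46 ± 0.78 at 4 weeks (adjusted p = 0.13) and 2.10 ± 0.79 at 7 weeks (adjusted p = 0.109).

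STAB1 encodes stabilin-1, a class H receptor of alternatively activated macrophages and sinusoidal endothelium that clears oxidised LDL and matrix fragments. Control valves held 78.3, 107, 88.0 and 72.6 CPM and 2-week valves 67.7, 133, 66.7 and 170.1 CPM. The 4-week valves held 215, 324, 271 and 121 CPM and the 7-week valves 245, 214.5, 232 and 281 CPM. All 4- and 7-week values lay above all controls, and the 7-week values were the more even. STAB1 was 2.38-fold higher than control at 4 weeks (log2 fold change 1.25 ± 0.28, adjusted p = 0.0343) and 2.81-fold higher at 7 weeks (1.49 ± 0.28, adjusted p = 0.00828). The 7-week call was kept in all 8 fits without a library. The 4-week call was kept only without 4-week replicate 4, at log2 fold changes of 1.08 to 1.45 over the 8 fits, was lost with the replicate number as a block (1.18, adjusted p = 0.0781), and its adjusted p was 0.52 with the RN18S share as a covariate.

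CD163 encodes the haptoglobin-haemoglobin scavenger receptor, a surface marker of resident macrophages. It was at 16.7, 12.1, 9.77 and 6.26 CPM in control and at 9.90, 19.1, 5.61 and 12.4 CPM after 2 weeks. The 4-week valves held 33.9, 132, 46.2 and 12.1 CPM and the 7-week valves 59.5, 42.6, 35.8 and 47.3 CPM. The 7-week valves stood clear of the controls, whereas 1 of the 4-week valves lay within their range. CD163 was 4.38-fold higher at 4 weeks (log2 fold change 2.13 ± 0.52, adjusted p = 0.0457) and 4.13-fold higher at 7 weeks (2.05 ± 0.52, adjusted p = 0.0269). The 4-week value leaned on replicate 2: without it the log2 fold change was 1.3 ± 0.40 (adjusted p = 0.168). The 4-week call was kept in 2 of 8 fits without a library, those without control replicate 1 or 4-week replicate 4, and was lost with the replicate block (1.95, adjusted p = 0.0814) and with the RN18S share (1.86, adjusted p = 0.676). The 7-week call was kept in 3 of 8, being lost without control replicate 2, 3 or 4 or 7-week replicate 2 or 4, with log2 fold changes of 1.86 to 2.26 and adjusted p up to 0.0734 over the 8.

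MRC1 encodes the mannose receptor, which takes up glycoproteins and collagen fragments. Levels were 26.6, 26.6, 25.6 and 12.4 CPM in control, 18.9, 44.1, 12.9 and 28.9 CPM at 2 weeks, 41.8, 102.3, 85.0 and 27.3 CPM at 4 weeks and 79.9, 34.2, 37.1 and 64.5 CPM at 7 weeks. No 4- or 7-week valve fell into the range of the controls, but the margin was small for the lowest 4-week library. The log2 fold change was 1.31 ± 0.39 at 4 weeks (adjusted p = 0.106) and 1.21 ± 0.39 at 7 weeks (adjusted p = 0.0664). It passed at both durations by DESeq2 (adjusted p = 0.0233 and 0.0217).

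LRP1 encodes a large receptor of the LDL receptor family that internalises remnant lipoproteins, protease-inhibitor complexes and debris. Control valves held 419.6, 445, 466 and 222 CPM and 2-week valves 612, 787, 425 and 451.5 CPM. The 4-week valves held 441, 446, 665 and 528 CPM and the 7-week valves 488, 81.9, 257 and 325 CPM. These ranges overlapped the controls at every duration, while 3 of the 7-week valves lay below every 2-week and 4-week valve. Against control the log2 fold change was 0.52 ± 0.34 at 2 weeks (adjusted p = 0.506) and -0.52 ± 0.34 at 7 weeks (adjusted p = 0.34), and at 4 weeks it was below its standard error.

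Those counts stand against different backgrounds. Over the 15627 genes tested, 0.0256% were called in either direction at 2 weeks, 2.00% were called higher at 4 weeks and 5.41% higher at 7 weeks. Of the 9 members, 0 were called at 2 weeks (0 also at an unadjusted p under 0.05 and 0 by DESeq2), 3 were called higher at 4 weeks and 3 at 7 weeks. In 3 members (MSR1, MRC1 and STAB1) all 4-week valves lay above all controls, against 6.38% of genes tested, and in 5 (MSR1, SCARB1, CD163, MRC1 and STAB1) all 7-week valves did, against 8.54%. OLR1 is left out of the former count, because it passed the count filter through those same libraries.

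**Figure D2:**
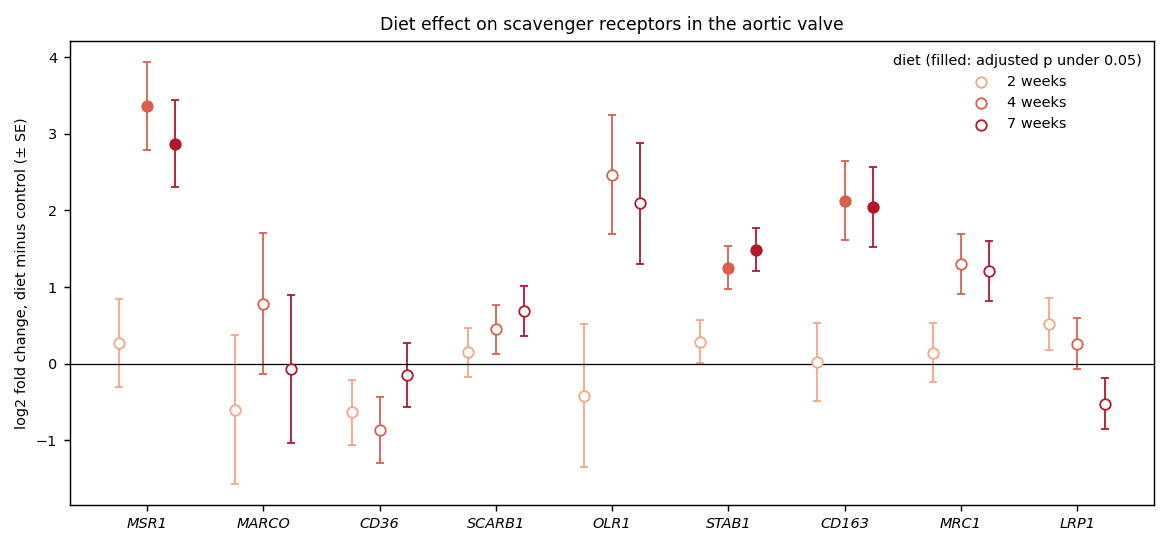
Log2 fold change against the 4 control valves (vertical axis, bars ± SE) for each receptor at 2, 4 and 7 weeks of diet, with 4 valves a group; filled points passed an adjusted p of 0.05. MSR1, CD163 and STAB1 are filled at 4 and 7 weeks, and no receptor is filled at 2 weeks.

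The durations were also compared with each other. Between 2 and 4 weeks MSR1 rose 8.53-fold (log2 fold change 3.09 ± 0.56, adjusted p = 0.00886) and CD163 4.32-fold (2.11 ± 0.52, adjusted p = 0.0315), while 3.18% of all genes were called higher. OLR1 reached 2.88 ± 0.79 (adjusted p = 0.0503), STAB1 0.97 ± 0.28 (adjusted p = 0.0618) and MRC1 1.16 ± 0.39 (adjusted p = 0.103). Both calls were lost with the RN18S share as a covariate, where MSR1 stood at 1.33 (adjusted p = 0.533) and CD163 at 1.71 (adjusted p = 0.484). CD163 was at 1.29 (adjusted p = 0.118) without 4-week replicate 2, was also lost without 2-week replicate 1, 3 or 4 or 4-week replicate 3, and was lost with the replicate block (1.93, adjusted p = 0.0601).

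Between 4 and 7 weeks no member passed the test, and 0.109% of genes did. One member, LRP1, had an unadjusted p under 0.05, with a log2 fold change of -0.78 ± 0.34 (adjusted p = 0.393), and no member passed by DESeq2. MSR1, OLR1, SCARB1, CD163, MRC1, STAB1 and MARCO all differed by less than their standard errors between these durations, and CD36 by 0.72 ± 0.43 (adjusted p = 0.482).

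Of the 6 valve comparisons, that of 7 with 2 weeks called the most genes, 14.5% higher and 12.2% lower. Of the members, MSR1, CD163 and STAB1 were higher and LRP1 was lower. MSR1 was 6.07-fold higher (log2 fold change 2.60 ± 0.56, adjusted p = 0.00478), CD163 4.07-fold (2.03 ± 0.52, adjusted p = 0.0116) and STAB1 2.30-fold (1.20 ± 0.28, adjusted p = 0.00783). LRP1 fell by 1.04 on the log2 scale (SE 0.34, adjusted p = 0.0343). The calls of MSR1, CD163 and STAB1 were kept without any 1 of the 8 libraries. LRP1 lost its call without 2-week replicate 1 or 2 or 7-week replicate 2 or 3, and stood at -0.77 (adjusted p = 0.0602) without 7-week replicate 2, the library with the lowest LRP1 level. It also lost it with the replicate block (adjusted p = 0.0588). OLR1 passed too (2.51 ± 0.80, adjusted p = 0.0315), but with 0 to 4 counts in each 2-week valve it was in the test only through its later libraries, so this value is a description and supports nothing. Its call was lost without 2-week replicate 1 or 3 or 7-week replicate 3 or 4 and with the replicate block (adjusted p = 0.0609).

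Cardiomyocyte markers summed to 1692 to 7661 CPM in the 2-week valves and 11200 to 51650 CPM in the 7-week valves, with no overlap. In the comparison of 7 with 2 weeks, 14 of 20 cardiomyocyte markers were called higher and 7 of 8 smooth muscle markers lower, beside 14.5% and 12.2% of all genes. With the cardiomyocyte score (the mean of log2(CPM + 1) over the list) as a covariate, MSR1 alone was called, at 3.32 (adjusted p = 0.0457). LRP1 was then at -0.80 (adjusted p = 0.432), OLR1 at 3.35 (adjusted p = 0.128), CD163 at 2.08 (adjusted p = 0.19) and STAB1 at 1.06 (adjusted p = 0.228).

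Macrophage markers moved with MSR1, CD163, STAB1 and MRC1. The sum of 14 markers, among them CD68, CD14, CSF1R, TYROBP and the C1q chains, was 208 to 386 CPM in control and 159 to 342 CPM in 2-week valves. In the 4-week valves it was 1106, 1734, 1983 and 419.8 CPM and in the 7-week valves 1099 to 1516 CPM. The 4-week valve with the lowest sum, replicate 4, was also the lowest of its group for MSR1, OLR1, CD163, MRC1, STAB1 and SCARB1. Of the 14 markers tested, 0 were called at 2 weeks, 10 were higher at 4 weeks and 12 at 7 weeks, with median log2 fold changes of -0.03, 2.29 and 2.45. None of the 14 was at 0 in any 4- or 7-week valve, and CD86 was at 0 in 1 control. Of 5 lymphatic and sinusoidal endothelial markers tested, 0 were called at 4 or 7 weeks. Over all genes, 2.00% were called higher at 4 weeks and 5.41% at 7 weeks. Pearson's r of STAB1 with the score of this endothelial list was 0.635 over the 16 valve libraries, and 0.499 after each group's mean was subtracted. The part of these endothelial cells in the STAB1 values was not tested. Other blood and immune cell markers moved in the same libraries. T and B lymphocyte markers (7 genes) summed to 1.44 to 4.202 CPM in control, 0.978 to 3.77 CPM in 2-week, 3.70 to 16.6 CPM in 4-week and 8.84 to 14.02 CPM in 7-week valves, and of the 4 tested, 1 was called higher at 4 weeks and 2 at 7 weeks. Neutrophil markers (5 genes) summed to 0.512 to 2.67 CPM in control, 2.03 to 11.4 CPM in 4-week and 5.31 to 22.6 CPM in 7-week valves, and all 3 tested were called higher at 7 weeks. At such low control sums, the neutrophil and lymphocyte genes tested may have passed the count filter through the 4- and 7-week libraries. Their counts of calls are therefore a description. Erythroid markers (4 genes) summed to 15.2 to 50.4 CPM in control, 18.9 to 60.9 CPM in 4-week and 37.4 to 168 CPM in 7-week valves, and both that were tested were called higher at 7 weeks. The part of these cell types in the members' changes was not tested.

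Across the 16 valve libraries, Pearson's r of a member's log2(CPM + 1) with the macrophage score was 0.942 for MSR1, 0.929 for STAB1, 0.928 for CD163, 0.86 for MRC1, 0.786 for OLR1 and 0.701 for SCARB1. It was 0.441 for MARCO, 0.113 for CD36 and -0.189 for LRP1. With the endothelial score (11 genes) CD36 had r = 0.774, and r = 0.798 after each group's mean was subtracted. CD36 also had r = 0.546 with the erythroid, 0.506 with the adipocyte and 0.37 with the cardiomyocyte score. After group means were subtracted these were 0.616, 0.601 and 0.268. With group means subtracted, MSR1 kept r = 0.788, CD163 0.795, STAB1 0.756 and MRC1 0.743 with the macrophage score. The T and B lymphocyte score gave r = 0.954 for CD163, 0.906 for MSR1, 0.901 for STAB1, 0.879 for MRC1 and 0.582 for MARCO. With group means subtracted these were 0.871, 0.76, 0.697, 0.777 and 0.793, so that CD163, MRC1 and MARCO had a higher r with the lymphocyte than with the macrophage score by both measures. These values describe libraries that share depth, tissue composition and group, and carry no test. Among the members themselves, CD163 and MRC1 had r = 0.928 and CD163 and STAB1 r = 0.914, while CD36 and MSR1 had r = 0.109.

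**Figure D3:**
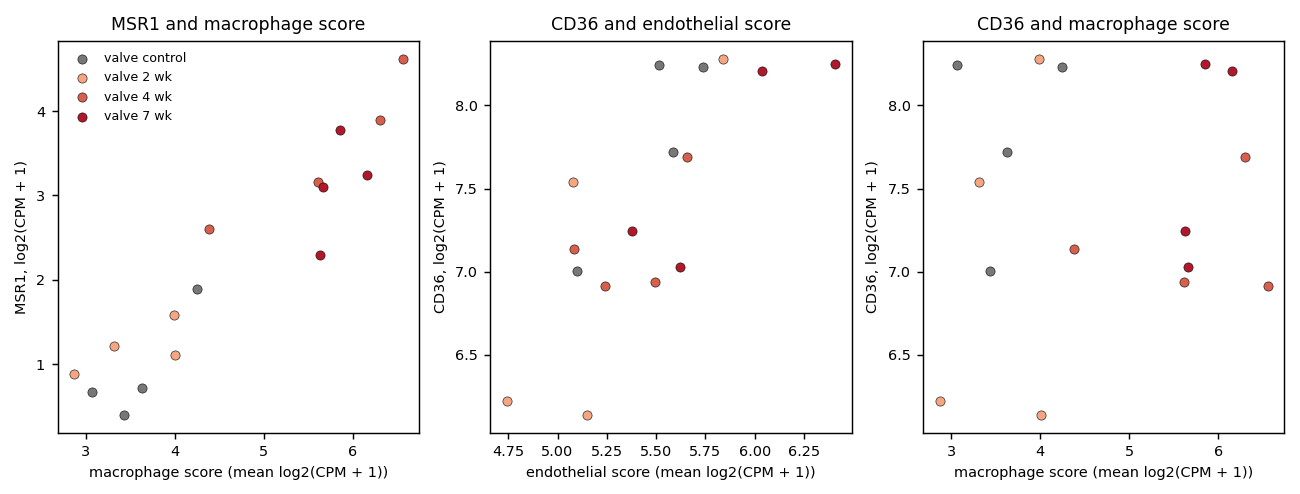
Log2(CPM + 1) of MSR1 against the macrophage score (left), of CD36 against the endothelial score (middle) and of CD36 against the macrophage score (right), 1 point per valve library (16), coloured by group. MSR1 climbs with the macrophage score (r = 0.942), and CD36 follows the endothelial score (r = 0.774) but not the macrophage score (r = 0.113).

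The genes most like each member were sought among 10202 genes with a mean of at least 5 CPM over the valve libraries. Nearest to MSR1 were MPEG1 (r = 0.977), a macrophage pore-forming protein, and GPR183 (0.975), an oxysterol receptor. CD163 was closest to MS4A6A (0.969), MS4A4A (0.963) and ABCA6 (0.962). STAB1 was closest to HMOX1 (0.964), the enzyme that degrades haem, then NAPSA (0.952) and WDFY4 (0.95). MRC1 was closest to IL6R (0.955), PLEK (0.938) and CYBB (0.938), the last a subunit of the phagocyte oxidase. The list of CD36 was different in kind, with CCDC88C (0.886), PTPRB (0.885), the endothelial phosphatase VE-PTP, and PODXL (0.885), the endothelial sialomucin podocalyxin. LRP1 was closest to KANSL1 (0.978), PAXBP1 (0.975) and KIDINS220 (0.973), SCARB1 to STK25 (0.917), LYPLA2 (0.911) and SMG9 (0.896), and OLR1 to GALM (0.926), TPP1 (0.92) and AKNA (0.915). MARCO had the weakest neighbours, PSMB9 (0.837), SIGLEC1 (0.786) and TAP1 (0.783).

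Other genes of the same pathways were read from lists of related genes. Of 12 other scavenger receptors tested, 2 rose at 4 weeks, CD68 (2.06 ± 0.39 log2, adjusted p = 0.0188) and SCARA3 (0.99 ± 0.24, adjusted p = 0.0457). At 7 weeks 3 rose, CD68 (2.35 ± 0.40), SCARA3 (1.3 ± 0.24) and CXCL16 (1.02 ± 0.24), the last a membrane chemokine that binds oxidised LDL. CD68 is also on the macrophage list. Beside these counts, 2.00% of all genes were called higher at 4 weeks and 5.41% at 7 weeks. The list's median log2 fold change was 0.88 at 4 weeks and 0.71 at 7 weeks.

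Of 11 other genes of the LDL receptor family and its partners tested, 0 were called at 4 weeks, beside 2.00% of all genes called higher, and 1 was called higher at 7 weeks, beside 5.41%. That 1 was LRP2 (2.40 ± 0.61, adjusted p = 0.0269), the endocytic receptor megalin. LRP2 was also called higher in diet myocardium (4.10 ± 0.42, adjusted p = 0.0196), and the part of the myocardial RNA in the valve libraries in its valve value was not tested. The medians were 0.08 and -0.13. In the comparison of 7 with 2 weeks, LRP2 (2.21 ± 0.60) and VLDLR (1.88 ± 0.64), a receptor for triglyceride-rich lipoproteins, were higher, beside 14.5% of all genes. The Wnt co-receptors LRP5 (-0.76 ± 0.15) and LRP6 (-0.60 ± 0.19) were lower, as LRP1 was, beside 12.2% of all genes. That comparison also carries the difference in cardiomyocyte and smooth muscle markers given above.

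Receptors and bridging proteins for dead cells split. TREM2, a lipid-sensing receptor of foamy macrophages, rose by 3.08 ± 0.55 log2 at 4 weeks (adjusted p = 0.0188) and by 3.28 ± 0.56 at 7 weeks (adjusted p = 0.00597), and LGALS3 (galectin-3) rose by 1.09 ± 0.30 at 7 weeks. The other 11 of 12 genes tested at 4 weeks and 10 of 12 at 7 weeks were not called. Over all genes, 2.00% were called higher at 4 weeks and 5.41% at 7 weeks. Between 2 and 7 weeks 2 of the 12 were higher and 7 lower, beside 14.5% and 12.2% of all genes. The largest of these changes were in TREM2 (3.16 ± 0.55), the engulfment adaptor GULP1 (-1.72 ± 0.37), the bridging protein PROS1 (-1.07 ± 0.26) and LGALS3 (0.90 ± 0.30). The same 7-with-2-week comparison carries the difference in cardiomyocyte and smooth muscle markers given above.

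Among ligands and partners of the receptors, 2 of 17 rose at 4 weeks, CD14 (2.62 ± 0.47), a co-receptor for lipopolysaccharide and a macrophage list gene, and HMOX1 (1.73 ± 0.38), which acts on haem taken in through CD163. At 7 weeks 3 rose, CD14 (2.91 ± 0.47), HMOX1 (2.05 ± 0.38) and LYN (1.36 ± 0.30), a kinase that signals from CD36. The Toll-like receptor gene TLR6 fell by 1.00 (SE 0.29, adjusted p = 0.0458), close to the threshold of 0.05. The share of all genes called lower at 7 weeks is not given here, so the TLR6 call is a description. Of 14 transcription factors linked to these receptors, 4 rose at 4 weeks and 4 at 7 weeks. Among them at both durations were SPI1 (2.48 ± 0.45 and 2.48 ± 0.45), the macrophage factor PU.1 and also a macrophage list gene, JUNB (1.51 ± 0.30 and 1.53 ± 0.30) and CEBPB (0.91 ± 0.17 and 0.79 ± 0.17). Beside the counts of ligands and factors, 2.00% of all genes were called higher at 4 weeks and 5.41% at 7 weeks. In none of these lists of related genes was any gene called at 2 weeks, where 0.0256% of all genes were.

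In the ascending aorta no member was called, and 0.159% of 14435 genes tested were. MSR1, OLR1 and MARCO fell under the count filter there, at 1 to 10, 0 to 5 and 0 to 4 counts a library. STAB1 was at 54.0, 70.3 and 53.98 CPM in control and 87.2 and 87.7 CPM with diet, so both diet values lay above all controls. The share of all genes that separate in this way in aorta was not computed. The 2 diet aortas were the closest pair of all same-group libraries. They differed beyond sampling noise, with a chi-square over its degrees of freedom of 11.97. Sampling noise gives about 1, and the other 33 pairs gave 21.8 to 183. Their median chi-square was 1.023, where sampling noise gives 0.455. These values cannot tell separate rabbits from repeat preparations of 1 sample. The small spread of the pair enters every SE in aorta. The 2 diet aortas were counted as separate replicates because their library names give different rabbits. They also held more cardiomyocyte marker RNA, 1749 and 1752 CPM against 728 to 986 in the controls. Of the 20 cardiomyocyte markers 5 were called higher: MYH6 (by 9.77 log2), MYL7, SLN, MYL4 and ACTC1. The most changed of these may have passed the count filter through the 2 diet libraries, so the count is a description. The rest of the 20 went both ways without passing. NPPA was at 3.40 and MYBPC3 at 1.87, but NPPB was at -3.04, MYL3 at -2.45, MYL2 at -1.67 and MYH7 at -1.48. The part of this in the members' values was not tested. For STAB1 the log2 fold change was 0.61 ± 0.14 (adjusted p = 0.194), and it passed by DESeq2 (adjusted p = 0.0292) and without control replicate 2 (0.73, adjusted p = 0.0387). SCARB1 was at 3.65, 3.54 and 2.59 CPM in control and 1.92 and 2.16 CPM with diet, with a log2 fold change of -0.62 ± 0.29 (adjusted p = 0.448). CD36 was at 60.9, 12.0 and 11.9 CPM in control and 14 and 14.7 CPM with diet. Its log2 fold change of -0.92 ± 0.76 (adjusted p = 0.636) rested on control replicate 1, without which it was 0.30. That library also had the highest summed adipocyte markers of the aorta, 466 CPM against 136 to 160.2 in the other 4. LRP1 was at 822, 1555 and 628 CPM in control and 1524 and 1458 CPM with diet (0.63 ± 0.36, adjusted p = 0.517), and at 1.07 (adjusted p = 0.0385) without control replicate 2, the only control as high as the diet pair. MRC1 was at 8.997 to 18.5 CPM in control and 8.83 and 9.30 CPM with diet (-0.43 ± 0.32, adjusted p = 0.6), and the difference in CD163 was below its standard error. Only STAB1 had an unadjusted p under 0.05.

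In myocardium, too, no member was called, beside 0.0848% of 14151 genes tested, and OLR1 and MARCO were not tested. CD163 was at 1.65, 6.51 and 1.82 CPM in control and 7.16, 17.2 and 18.6 CPM with diet. MRC1 was at 4.44, 9.94 and 6.46 CPM in control and 10.5, 27.6 and 32.5 CPM with diet. The groups did not overlap for either gene, but the share of all genes without overlap in myocardium was not computed. Diet replicate 1, the lowest diet library for CD163, MRC1, LRP1 and MSR1, had 7.54% of its counts on RN18S against 1.16% to 2.22% in the other 5, and the part of this was not tested. The log2 fold changes, 2.17 ± 0.58 for CD163 (adjusted p = 0.267) and 1.84 ± 0.43 for MRC1 (adjusted p = 0.2), stood beside 2.05 and 1.21 in the 7-week valve, and both passed by DESeq2 (adjusted p = 0.00775 and 0.00241). LRP1 was at 121, 114 and 81.7 CPM in control and 99.6, 304 and 260 CPM with diet (1.13 ± 0.38, adjusted p = 0.385). These 3 genes had an unadjusted p under 0.05. MSR1 was at 0.573, 1.07 and 0 CPM in control and 0.231, 0.776 and 2.12 CPM with diet and did not separate, and STAB1 and SCARB1 differed by less than their standard errors. CD36 was at 304, 506 and 510.1 CPM in control and 454, 750.3 and 398 CPM with diet (0.40 ± 0.30, adjusted p = 0.845). The macrophage marker sum was 118.5 to 179 CPM in control and 176 to 198.5 CPM with diet, and 0 of the 13 macrophage markers tested were called.

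**Figure D4:**
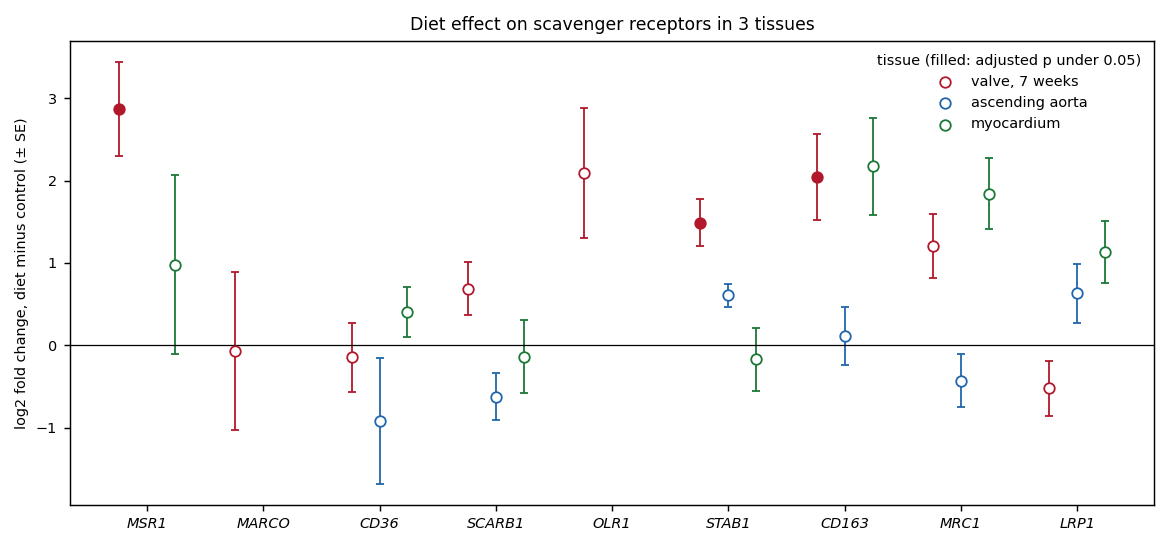
Log2 fold change, diet against control (vertical axis, bars ± SE), for each receptor in valve after 7 weeks (4 against 4), ascending aorta (2 against 3) and myocardium (3 against 3); filled points passed an adjusted p of 0.05, and a missing point was not tested. MSR1, STAB1 and CD163 are filled in valve, and none is filled in aorta or myocardium.

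The diet effects were compared between tissues directly, in joint fits that took all libraries as independent. However, all 3 diet myocardium rabbits were also 7-week valve rabbits, and 2 control rabbits gave both valve and myocardium. A 2-week valve rabbit also gave a diet aorta. The p-values of these edgeR fits ignore that pairing. No member's effect differed between the 7-week valve and myocardium, where 0.423% of 16068 genes did. STAB1 came nearest, with an effect larger in the valve by 1.66 ± 0.41 log2 (adjusted p = 0.0874, and 0.00916 by DESeq2), and LRP1 was lower in the valve by the same measure at -1.66 ± 0.61 (adjusted p = 0.246). For MSR1 the difference was 1.87 ± 1.27 (adjusted p = 0.538), and for CD163 it was below its standard error. No member's effect differed between the mean of the 3 valve durations and the aorta either, where 0.0474% of 16866 genes did. MRC1 (1.27 ± 0.59, adjusted p = 0.53) and SCARB1 (1.01 ± 0.48, adjusted p = 0.542) were the 2 with an unadjusted p under 0.05, and none passed by DESeq2. So a call in the valve and none in the other tissues does not show that the tissues differed.

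Normal levels did differ between tissues, as did those of many genes. Between control valve and control aorta 22.2% of 15281 genes were called, between control valve and control myocardium 46.0% and between control aorta and control myocardium 52.8%. MSR1 and OLR1 were not tested among controls, at 0 to 38 and 0 to 3 counts a library. Where control tissues are said below not to overlap, the share of all genes without overlap was not computed. CD36 was lowest in aorta, 28.3 ± 28.3 CPM (SD, n = 3), then 234 ± 83.3 in valve (n = 4) and 439.9 ± 118 in myocardium (n = 3), and no library of 1 tissue overlapped another's. It was 7.74-fold higher in valve than in aorta (2.95 ± 0.62, adjusted p = 0.00882) and lower in aorta than in myocardium (-4.21 ± 0.67, adjusted p = 0.000418), whereas valve and myocardium did not pass (-1.26 ± 0.55, adjusted p = 0.0821, and 0.0356 with the animal as a block in limma-voom).

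LRP1 had the opposite order, with 1002 ± 489 CPM in aorta, 388 ± 112 in valve and 106 ± 20.9 in myocardium. All 3 steps passed: valve was below aorta by -1.51 ± 0.35 (adjusted p = 0.0138) and above myocardium by 1.47 ± 0.37 (adjusted p = 0.00847), and aorta was above myocardium by 2.98 ± 0.41 (adjusted p = 0.000151). The step from valve to aorta fell to -1.03 (adjusted p = 0.0639) without aorta control replicate 2. Smooth muscle markers summed to 52420 to 63120 CPM in control aorta, 20230 to 36130 CPM in control valve and 2280 to 2498 CPM in control myocardium.

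STAB1 was at 59.4 ± 9.39 CPM in control aorta, 86.5 ± 15.3 in valve and 136 ± 91.8 in myocardium, where the 3 values were 68.9, 99.3 and 241 CPM. Valve and aorta did not overlap, and myocardium overlapped both. Valve was below myocardium by -0.99 ± 0.31 (adjusted p = 0.0234) and aorta by -1.39 ± 0.34 (adjusted p = 0.00552). Without myocardium replicate 3, the high library, the former was -0.43 (adjusted p = 0.0934). It was also lost without valve control replicate 1 or 4, and with the animal as a block in limma-voom, since 2 rabbits gave both tissues (-0.67, adjusted p = 0.0557). MRC1 was higher in valve, 22.8 ± 6.97 CPM, than in myocardium, 6.95 ± 2.78 CPM (1.32 ± 0.36, adjusted p = 0.0131), a call lost without myocardium replicate 1. MARCO was lower in aorta, at 0.348, 0 and 0 CPM, than in myocardium, at 0.215, 0.873 and 1.47 CPM (-3.15 ± 1.21, adjusted p = 0.0481), which was kept in 2 of 6 fits without a library. With 2 of 3 aorta libraries at 0, that fitted value depends on the prior count and is no measure of size. CD163 and SCARB1 passed in none of the 3 comparisons of control tissues, CD163 reaching 1.33 ± 0.52 between valve and myocardium (adjusted p = 0.0567). With the animal as a block it was 1.56 (adjusted p = 0.0123), and without myocardium replicate 2 it was 2.29 (adjusted p = 0.00393).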

How the data were processed

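The authors deposited a table of expected counts per gene for each tissue, and a valve table without 346 genes they counted as myocardial, none of them a receptor. RSEM 1.3.3 and STAR 2.7.8a are named among the tools, per the submitters' processing notes, with edgeR 3.42.4, and Trim Galore 0.6.6 beside FastQC 0.11.9. The genome build is not given in the sources used here. About 10% of the deposited expected counts were not whole (9.39% to 10.1% by table) and were rounded. Groups came from the labels. Nothing in the labels gives more than 1 library per tissue and rabbit. Within a tissue, p-values therefore measure the spread between libraries taken to be of separate rabbits. Joint fits across tissues took libraries of the same rabbit as independent, except where the animal is named as a block.

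Valve comparisons came from 1 fit of 16 libraries on the smaller valve table, and comparisons across tissues from the full tables. The test was edgeR 4.0.16 (quasi-likelihood, two-sided, TMM scaling, filterByExpr with a minimum count of 10 and a total of 15, Benjamini-Hochberg adjustment over all genes tested, threshold 0.05) in R 4.3.3. SE is the log2 fold change divided by the square root of F. DESeq2 1.42.0, limma 3.58.1, other scalings, filters and covariates and each left-out library were alternatives. The fits were tested on simulated data.

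The 9 receptors and the gene lists were chosen with earlier results of these data known. Of each list, at most 4 called genes with the largest changes are named per comparison, and for each receptor the 3 genes of highest correlation. Some genes that this rule selects are not reported here. Of 191 list entries, 16 were absent from the tables.

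Replicate numbers, as given in the titles, did not pair the valve libraries: deviations from group means correlated at -0.102 on average over 24 same-numbered pairs and 0.034 over 72 others.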

Additional observations from a re-analysis of the deposited data

Results flagged for a closer look

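A single library stood apart from the other 3 of its group, by Dixon's test at the 95% level, in 4 of 36 combinations of receptor and group of 4 or more libraries, where chance alone flags about 1 in 20. MSR1 was at 2.71 CPM in control valve replicate 1, the highest of the controls. SCARB1 was at 7.50 CPM in 2-week valve replicate 4, above the other 3. MRC1 was at 12.4 CPM in control valve replicate 4, the control titled 2 weeks and the lowest of its group. MARCO was at 3.83 CPM in 4-week valve replicate 2, the library that also had the most CD163.

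The diet effect differed between durations, by the edgeR test of 1 duration against another, in 5 receptors, 1 of which, OLR1, was in the test only through its later libraries, so that its value supports nothing. Beside that count, 3.18% of all genes were called higher from 2 to 4 weeks, and 14.5% higher and 12.2% lower from 2 to 7 weeks. From 2 to 4 weeks the log2 difference was 3.09 for MSR1 and 2.11 for CD163. From 2 to 7 weeks it was 2.60 for MSR1, 2.51 for OLR1, 2.03 for CD163, 1.20 for STAB1 and -1.04 for LRP1. The direction was seen in 4 of 4 later valves against all 2-week valves for MSR1 at both durations and for CD163 and STAB1 at 7 weeks, and in 3 of 4 for CD163 at 4 weeks and for OLR1 and LRP1 at 7 weeks. These receptors were picked by the test on the same libraries, so the counts of valves describe the calls and add no support. The share of all genes that separate from the 2-week valves was not computed.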

How the results depend on the processing

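Receptors called in the valve fell from 3 to 0 at 4 weeks when only the 2 groups compared were fitted, with the replicate number as a block, and with the RN18S share as a covariate, a setting added after the data were seen. Between 2 and 4 weeks the count of 2 was 5 by DESeq2, 1 with only the 2 groups, with the replicate block and with the cardiomyocyte score as a covariate, and 0 with the RN18S share. Between 2 and 7 weeks the count of 5, OLR1 included, was 3 with only the 2 groups and with the replicate block, and 1 with the cardiomyocyte score. At 7 weeks CD163 lost its call with the cardiomyocyte score (adjusted p = 0.0526). By DESeq2 the count rose from 0 to 1 in aorta, 0 to 2 in myocardium, 0 to 1 for the difference between 7-week valve and myocardium, and 3 to 5 between control valve and myocardium. Leaving out each library gave 0 to 4 receptors at 4 weeks, 2 to 3 at 7 weeks, 1 to 5 between 2 and 4 weeks, 3 to 5 between 2 and 7 weeks, 0 to 2 in aorta, 0 to 1 for 7-week valve against myocardium, 1 to 2 for control valve against aorta, 2 to 4 for control valve against myocardium, 3 to 4 for control aorta against myocardium, and 0 in the other 4 comparisons. The cause of these changes was not tested.

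Over all genes, DESeq2 called 911 at 2 weeks, 761 at 4 and 2231 at 7, where edgeR called 4, 321 and 1270. It called 1482 between 2 and 4 weeks (692 by edgeR), 196 between 4 and 7 weeks (17), 408 in aorta (23), 308 in myocardium (12), and 548 and 83 for the differences of the valve from myocardium and from aorta (68 and 8). With only the 2 groups the count was 397 at 2 weeks, 2 at 4 weeks, 207 between 2 and 4 weeks and 2 between 4 and 7 weeks. With the replicate block it was 0 at 2 weeks, 5 at 4, 685 at 7, 292 between 2 and 4 weeks, 10 between 4 and 7, and 96 in aorta. With the cardiomyocyte score it was 0 at 2 weeks, 815 at 4, 269 between 2 and 4 and 222 between 2 and 7 (4175 without it), and with the RN18S share 0 at 4 weeks, 1 between 2 and 4 and 0 between 4 and 7. Without a count filter, 76 were called in myocardium, and limma-voom with the animal as a block called 229 for valve against myocardium. The same fit could not be made for valve against aorta, which share 1 animal.

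Of 73 member differences above their standard error, 3 changed sign in some setting. CD36 between 2 and 7 weeks was -0.14 with the cardiomyocyte score, MARCO between 2 and 4 weeks ranged from -0.21 to 2.15 over left-out libraries, and CD36 in aorta from -1.29 to 0.30. Of 33 below it, 24 changed sign. Low counts limit OLR1 and MARCO.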
